A study of Mus musculus with 16 samples.

Results

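The 10 genes described here are markers of macrophages: Ptprc, Tyrobp, Cd14, Cd68, Adgre1, C1qa, C1qc, Csf1r, Cx3cr1 and Lyz2. They were taken as the probe sets annotated with exactly 1 gene symbol, that symbol being on the list, which gave 14 probe sets of the 34945 that carry a single symbol and are not controls, and 10 genes of 18193. Ptprc and Cx3cr1 each had 2 probe sets, Csf1r had 3, and the other genes had 1. Each gene is given by its brightest probe set, and the rest are described at the end of the caput results. Gene expression was read on 16 Affymetrix arrays with a single channel, 8 from the caput (the head of the epididymis) and 8 from the efferent ducts, which carry sperm from the testis to it. All animals were adult 129BL/6 male mice. In each tissue 2 arrays came from sham-operated mice given vehicle, 2 from castrated mice given vehicle, 2 from castrated mice given 0.015 mg testosterone propionate (TP) and 2 from castrated mice given 0.015 mg estradiol (E2). In every group the injection was 100 microL with 10% ethanol. It followed surgery by 14 days and the tissue was taken 12 hours later. Both hormone groups thus also carry the castration and the vehicle, and no sham-operated mouse received a hormone. Nothing in the labels says that the arrays of a group came from separate mice, so the p-values measure only the spread between these samples, and 2 arrays a group limit the precision of every value.

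Macrophages are phagocytes that live within tissues or arrive as blood monocytes. In the epididymis they lie around and within the duct's epithelium, next to sperm that the immune system must tolerate. Their survival depends on the receptor Csf1r and its ligands Csf1 and Il34, and they sense microbial products, clear dying cells and make the C1q proteins that begin the classical complement cascade. The RNA came from whole tissue, in which fewer cells of a type and less RNA per cell cannot be told apart.

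Values are the deposited linear intensities, and each array had a trimmed mean of 125 (2% of probe sets left out at each end). Background was set on each array at its brightest Bacillus control probe set, which lay between 7.82 and 12.3 in the caput. The brightest probe set of all 10 genes stood above background on all 16 arrays. The caput arrays were alike in signal, with 69.1% to 76.2% of probe sets above background. In the efferent duct the 4 vehicle arrays had 62.1% to 71.2% above background and a log2 ratio of 3.11 to 3.87 between the 3′ and 5′ actin probe sets, against 81.7% to 87.6% and 0.91 to 1.93 on the 4 hormone arrays. Hormone and vehicle arrays of the duct were therefore not compared, because treatment and array quality cannot be told apart there. The 7 genes that mark the caput summed to 59595 and 59345 on the caput sham arrays and to 2978 and 7113 on the duct sham arrays. The 8 duct markers summed to 5155 on both duct sham arrays (rounded) and to 2441 and 2522 in the sham caput.

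In the caput after castration, 3 of the 10 macrophage genes rose: Cd14 by 2.41-fold, Ptprc by 1.99-fold and Tyrobp by 1.58-fold. None of the 10 fell beyond the threshold, an adjusted p of 0.05 by limma with Benjamini-Hochberg adjustment over all 18193 genes. By the same test 14.0% of all genes changed and 7.90% rose. The median log2 difference of the 10 genes was 0.34, against 0.06 for all genes, and the single genes ran from -0.70 for Cd68 to 1.27 for Cd14.

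Ptprc encodes CD45, the phosphatase on the surface of all white blood cells. Its intensities were 107 and 99.8 on the sham arrays, 191 and 222 on the castrated arrays, 149 and 166 after TP, and 173 and 142 after E2. Both castrated arrays lay above every other caput array, and both sham arrays lay below. Castrated exceeded sham by 0.99 on the log2 scale (95% interval 0.59 to 1.40, limma adjusted p = 0.0211).

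Tyrobp encodes DAP12, the adaptor that passes signals from TREM2 and other receptors of myeloid and natural killer cells. It stood at 159 and 151 in sham, 228 and 262 in castrated, 225 and 270.4 after TP, and 299 and 300 after E2. The sham arrays were the lowest pair and the E2 arrays the highest. Castrated exceeded sham by a log2 difference of 0.66 (0.29 to 1.02, limma adjusted p = 0.0439).

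Cd14 encodes the receptor that hands bacterial lipopolysaccharide to TLR4. It read 88.8 and 79.4 in sham, 209 and 195 in castrated, 147 and 141 after TP, and 244 and 287 after E2. No group overlapped another: sham was lowest, then TP, castrated and E2. The castrated mean was 202 ± 9.71 (SD, n = 2) against 84.1 ± 6.62 in sham (SD, n = 2), a log2 difference of 1.27 (0.92 to 1.62, limma adjusted p = 0.00954).

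**Figure D1:**
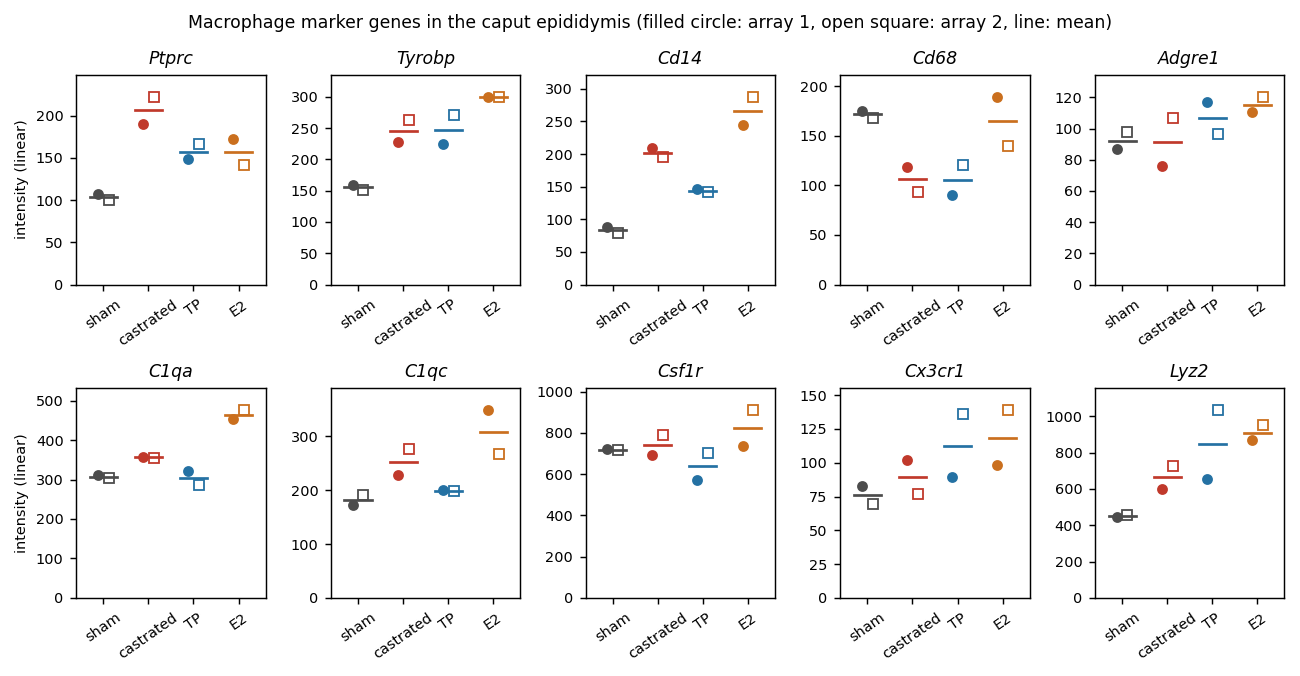
Linear intensity of each of the 10 genes on the 8 caput arrays, by group. Filled circles are the first array and open squares the second of each group, and lines are group means. Cd14 shows 4 separate levels, from 79.4 and 88.8 in sham to 244 and 287 after E2, whereas Cd68 was highest in sham and Adgre1 overlapped between castrated and sham.

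The other 7 genes did not pass the test between castrated and sham mice. Lyz2, the lysozyme of macrophages and neutrophils, read 445 and 459 in sham and 602 and 729 in castrated (log2 difference 0.55, limma adjusted p = 0.198). Its neighbour Lyz1 is a near-identical copy, and whether this probe set separates them was not tested. C1qa, a chain of the C1q complex, read 312 and 303 in sham and 358 and 355 in castrated, a difference of 0.22 (adjusted p = 0.276). C1qc, its partner chain, read 173 and 192, then 229 and 276, a difference of 0.46 (adjusted p = 0.156). All 3 genes had both castrated arrays above both sham arrays.

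Cd68, a glycoprotein of the lysosome membrane in phagocytes, lay the other way, at 174 and 168 in sham and 119 and 93.6 in castrated. The groups did not overlap, but its log2 difference of -0.70 (-1.30 to -0.11) had a limma adjusted p of 0.111. Cd68 was called lower when the 40% dimmest genes were left out or limma's spread was fitted against intensity (smallest adjusted p 0.0297). The receptors differed less. Csf1r, the receptor for Csf1 and Il34, gave 721 and 716 in sham and 692 and 792 in castrated, a difference of 0.04 (-0.40 to 0.49). Cx3cr1, the receptor for the chemokine Cx3cl1, gave 83.1 and 69.8, then 102 and 76.8. Adgre1, which encodes the F4/80 antigen, gave 86.8 and 97.9, then 76.3 and 107. For these receptors and Adgre1 the groups overlapped.

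In all, 6 of the 10 genes had both castrated arrays above both sham arrays, 1 had both below and 3 overlapped, while over all genes these shares were 35.1% above and 27.6% below. The calls for Cd14, Ptprc and Tyrobp were not kept when any 1 of the 4 sham and castrated arrays was left out: the limma adjusted p was then 0.0526 to 0.0573 for Cd14, 0.0694 to 0.101 for Ptprc and 0.105 to 0.175 for Tyrobp. Cd14 alone passed when a gene's probe sets were averaged or when 1 model was fitted to all 16 arrays, and none passed in a fit of only the 4 arrays compared. Tyrobp also missed the threshold when each probe set was tested singly (limma adjusted p = 0.0666). Of the 13 alternatives run, the left-out arrays among them, 8 called Cd14, 6 called Ptprc and 3 called Tyrobp.

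After E2 the caput of castrated mice differed from sham in 5 of the 10 genes, all higher: Cd14 by 3.15-fold, Lyz2 by 2.01-fold, Tyrobp by 1.93-fold, C1qc by 1.67-fold and C1qa by 1.51-fold. Over all genes 17.2% changed and 9.99% rose in this comparison, which shares its sham arrays with the castration comparison. Cd14 reached a mean of 266 ± 30.7 (SD, n = 2), a log2 difference of 1.66 (1.31 to 2.01, limma adjusted p = 0.00503). Lyz2 read 867 and 953 after E2, a difference of 1.01 from sham (0.39 to 1.63, limma adjusted p = 0.0481). Tyrobp differed by 0.95 (0.58 to 1.32, limma adjusted p = 0.0161).

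The complement genes had their highest values after E2. C1qa read 453 and 475, above all 6 other caput arrays, with a log2 difference of 0.59 from sham (0.30 to 0.89, limma adjusted p = 0.0290). C1qc read 348 and 266, a difference of 0.74 from sham (0.28 to 1.20, limma adjusted p = 0.0497), although its lower E2 array lay below the higher castrated array. Ptprc, which rose after castration alone, differed from sham by 0.60 after E2 (limma adjusted p = 0.0607). Cx3cr1 (98.2 and 139), Adgre1 (111 and 120) and Csf1r (736 and 909) each lay above sham without overlap and missed the threshold, at adjusted p = 0.220, 0.341 and 0.508. Cd68, at 189 and 140, overlapped sham.

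With E2, 9 of the 10 genes thus lay above sham without overlap, and none below, where 35.3% and 27.5% of all genes did, and their median log2 difference was 0.61 against 0.08 for all genes. Cd14 was the only one of the 5 calls kept when any 1 of the sham or E2 arrays was left out (limma adjusted p 0.0232 to 0.0365). C1qc and Lyz2 did not pass when probe sets were averaged or tested singly, C1qc missed with quantile normalization and Lyz2 with values under 16 set to 16. Ptprc was called as well when the 40% dimmest genes were left out, with limma's spread fitted against intensity and with that floor of 16. Cd14 and Lyz2 passed in 1 fit of all 16 arrays, and none of the 5 passed in a fit of the 4 arrays alone.

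After TP, Cd14 was the only one of the 10 genes called against sham, at 1.72-fold (log2 difference 0.78, 0.43 to 1.13, limma adjusted p = 0.0361). In that comparison, which used the same sham arrays, 9.16% of all genes changed and 4.65% rose. Its mean after TP was 144 ± 4.31 (SD, n = 2), between sham and castrated. Tyrobp, Ptprc and Lyz2 differed from sham by 0.67, 0.61 and 0.87, with limma adjusted p = 0.0522, 0.0752 and 0.0867. Lyz2 read 657 and 1033 on the TP arrays, the widest pair for this gene in the caput. C1qa stood at 323 and 287 after TP and C1qc at 200 and 198, close to their sham values (log2 differences of -0.01 and 0.13). Cd68 was at 90.7 and 120.4, below both sham arrays (difference -0.71, limma adjusted p = 0.119), and was called lower under the same alternatives as after castration (smallest adjusted p 0.0315). Both TP arrays lay above sham for 6 of the 10 genes and below for 2, against 32.2% and 29.0% of all genes. The median log2 difference of the 10 genes was 0.37, against 0.03 for all genes. The Cd14 call was lost on leaving out any 1 of the sham or TP arrays, with quantile normalization, with probe sets averaged, in 1 fit of all 16 arrays and in a fit of only 4 arrays.

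**Figure D2:**
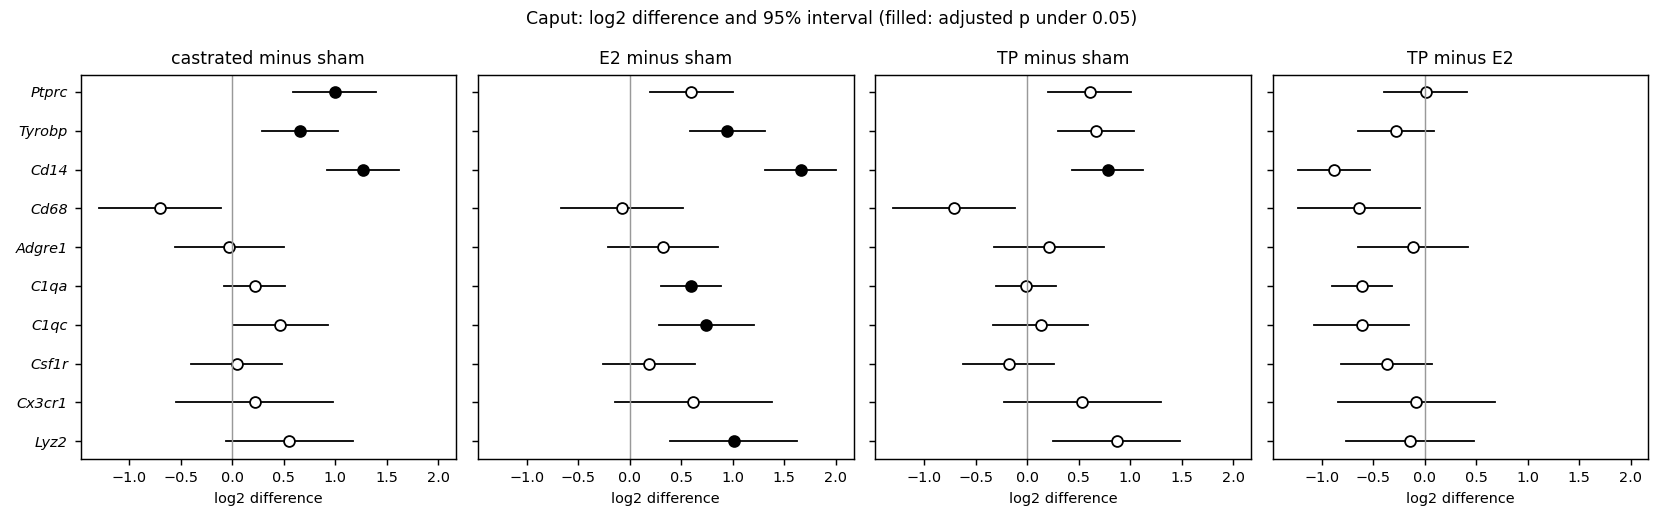
Log2 differences of the 10 genes between caput groups with their 95% intervals from limma, for castrated, E2 and TP each against sham and for TP against E2. Filled points passed an adjusted p of 0.05. The filled points are Cd14, Ptprc and Tyrobp for castrated against sham, Cd14 for TP against sham, and Cd14, Lyz2, Tyrobp, C1qc and C1qa for E2 against sham.

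Among castrated mice, none of the 10 genes differed beyond the threshold between hormone and vehicle or between the hormones. For TP against vehicle, where 1.67% of all genes were called, Cd14 was lower by a log2 difference of -0.49 (-0.84 to -0.14, limma adjusted p = 0.151) and Ptprc by -0.39 (adjusted p = 0.277). Cd14, Ptprc, C1qa and C1qc had both TP arrays below both castrated arrays, as 29.4% of all genes did, and none had both above, as 23.2% did. Cd14 was the only gene of the 10 with an unadjusted p under 0.05 in this comparison, and it was called when the 40% dimmest genes were left out.

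For E2 against vehicle limma called 0 of the 18193 genes (0%), although 2637 of them had an unadjusted p under 0.05. Of the 10 genes, 3 had one: C1qa (log2 difference 0.38, 0.09 to 0.67), Cd14 (0.39, 0.04 to 0.74) and Cd68 (0.63, 0.03 to 1.22), with adjusted p = 0.263, 0.307 and 0.327. Both E2 arrays lay above both castrated arrays for 6 genes, as for 23.8% of all genes. Ptprc alone lay below, as 23.4% of all genes did, by -0.40 (limma adjusted p = 0.353).

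Between the hormones, TP against E2, 2.12% of all genes were called. The largest difference among the 10 was that of Cd14, -0.88 (-1.23 to -0.53, limma adjusted p = 0.0518). C1qa and C1qc were both lower by -0.61 after TP, at adjusted p = 0.0791 and 0.188, and Cd68 by -0.64 at 0.258. Ptprc differed by 0.01 (-0.40 to 0.41). For 6 of the 10 genes both TP arrays lay below both E2 arrays, and for none above, against 27.9% and 20.6% of all genes. Cd14 and C1qa passed when the 40% dimmest genes were left out and when values under 16 were set to 16, and C1qc joined them when limma's spread was fitted against intensity.

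By group means, E2 was highest for 8 of the 10 genes in the caput, castrated for Ptprc and sham for Cd68. Sham was lowest for 6, TP for Cd68, C1qa and Csf1r, and castrated for Adgre1. In the order for Cd14, each neighbouring pair of groups was separate in these arrays. For Ptprc the TP and E2 means were 158 and 157 and overlapped, and for Tyrobp the castrated and TP arrays overlapped. Adgre1 had the narrowest order, with its highest group mean 1.26 times its lowest, and Cd14 the widest, at 3.16 times.

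The additional probe sets did not all follow the brightest ones. For Csf1r, 1419872_at was the brightest, while 1419873_s_at read 199 and 208 in sham, 159 and 218 in castrated, 178 and 195 after TP and 307 and 348 after E2. Both E2 arrays of that probe set lay above the other 6 caput arrays. E2 against castrated came to 0.81 by 1419873_s_at, 0.54 by 1423593_a_at and 0.14 by 1419872_at, with limma adjusted p = 0.206, 0.396 and 0.775 in a fit of all probe sets.

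For Cx3cr1 the 2 probe sets did not follow each other. The dimmer, 1450019_at, read 30.3 and 19.2 in sham, 15.2 and 9.44 in castrated, 8.15 and 8.29 after TP, and 8.52 and 13.7 after E2, and was above background on 5 of the 8 arrays, but on 1 castrated array and on no TP array. Its highest pair was sham, which was the lowest pair by mean for the brighter probe set, and neither passed the test against sham. Levels this close to background give no reliable size of difference. The second Ptprc probe set was above background on 2 of the 8 caput arrays.

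RefSeq promoter windows (GRCm38.p6) were at hand for 5 of the 10 genes. The 200 bases before the start are printed for those in which a short motif of a macrophage factor was found, 5′ to 3′ on the gene's strand, with the match in capitals. The motifs were chosen after the sequences had been seen. They are AGGAAGT, a sequence bound by PU.1 and other ETS factors, and TGANTCA, bound by AP-1, each searched on both strands. Ptprc lies at chr1:138175306-138175505, C1qc at chr4:136892915-136893114, Lyz2 at chr10:117282273-117282472 and Cd68 at chr11:69666171-69666370, all on the minus strand.
Ptprc: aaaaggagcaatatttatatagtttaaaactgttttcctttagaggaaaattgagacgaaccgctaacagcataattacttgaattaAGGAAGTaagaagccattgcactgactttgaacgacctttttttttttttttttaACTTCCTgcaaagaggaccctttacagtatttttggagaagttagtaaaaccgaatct
C1qc: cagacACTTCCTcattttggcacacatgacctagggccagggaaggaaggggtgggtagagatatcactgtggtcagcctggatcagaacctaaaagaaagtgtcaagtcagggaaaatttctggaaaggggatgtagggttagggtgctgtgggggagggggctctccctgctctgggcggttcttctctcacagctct
Lyz2: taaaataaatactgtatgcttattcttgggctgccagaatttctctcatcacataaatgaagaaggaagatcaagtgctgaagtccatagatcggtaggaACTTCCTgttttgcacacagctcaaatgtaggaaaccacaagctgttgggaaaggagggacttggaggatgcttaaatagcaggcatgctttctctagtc
Cd68: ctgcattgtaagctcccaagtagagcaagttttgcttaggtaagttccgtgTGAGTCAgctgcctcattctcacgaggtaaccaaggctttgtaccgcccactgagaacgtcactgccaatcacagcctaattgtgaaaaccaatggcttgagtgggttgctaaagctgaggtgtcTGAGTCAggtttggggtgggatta

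The letters AGGAAGT were present in 3 of the 5 genes with a window (6 windows in all). In Ptprc they lay at -113 to -107 and, on the opposite strand, at -58 to -52. In C1qc they lay at -195 to -189 and in Lyz2 at -100 to -94, both on the opposite strand (ACTTCCT). This motif was found in 6.34% of 32851 promoter windows of this length. Cd68 did not hold AGGAAGT in its window but had TGAGTCA at -149 to -143 and at -24 to -18. Shorter or variant ETS sites were not searched. The AP-1 letters were found in 5.48% of windows. Neither motif was found in the window of Cx3cr1 or in a second Ptprc window. The shares are of windows, whereas the matches above are counted by gene. Because the motifs were chosen after the sequences had been seen, the shares give no test of those counts. These are matches of letters, with no measurement of binding.

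Across the 8 caput arrays, which fall into 4 groups, the log2 values of the 10 genes had a Pearson correlation above 0 in 39 of 45 pairs, with a median of 0.43. Tyrobp followed Lyz2 (0.94) and Cd14 (0.91), and C1qa followed C1qc (0.84). Cd68 had a median correlation of -0.16 with the other genes and of -0.59 with Ptprc. The mean standardised log2 value of the 10 genes was -0.83 and -0.87 on the sham arrays, -0.13 and 0.24 in castrated, -0.43 and 0.08 after TP, and 0.89 and 1.05 after E2.

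Of 12211 genes ranked by correlation with that mean over the 8 arrays, Nfkbia, which encodes an inhibitor of NF-kB, was the most alike (0.99). It read 1700 and 1599 in sham, 2342 and 2795 in castrated, 2219 and 2518 after TP, and 3646 and 4098 after E2. The next were Stbd1, Dag1, Hsd17b11 and Rgs10, at 0.99, 0.98, 0.98 and 0.98.

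Genes around the 10 were read from lists of their pathways. Of 41 further macrophage genes measured, 2 rose and 1 fell after castration, with a median log2 difference of 0.34 against 0.06 for all genes. These 3 calls of 41 stand beside 14.0% of all genes called. Irf8, a transcription factor of the monocyte lineage, went from 56.4 ± 0.204 in sham to 109 ± 6 in castrated (SD, n = 2 each), 1.94-fold (limma adjusted p = 0.0184). Mpeg1, a pore-forming protein of phagocytes, rose 1.86-fold and Gpnmb, a glycoprotein of lipid-laden macrophages that other cells also make, was 3.53-fold lower. With E2, 7 of the 41 were higher than in sham and none was lower, beside 17.2% of all genes called, with a median of 0.61 against 0.08 for all genes. Among them were Ncf1, a subunit of the phagocyte oxidase, at 2.68-fold and Lyve1, found on resident macrophages and lymphatic vessels, at 3.09-fold. With TP, Irf8 and Mpeg1 were the 2 called against sham, both higher, beside 9.16% of all genes called. Ncf1 was 3.39-fold lower after TP than after E2 (limma adjusted p = 0.0246).

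Neither Csf1r nor Cx3cr1 passed in a caput comparison, whereas ligands of both did. Cx3cl1, the ligand of Cx3cr1, rose from 201 ± 0.368 in sham to 459 ± 7.26 in castrated (SD, n = 2 each), 2.28-fold (limma adjusted p = 0.0115), and stood 2.78-fold above sham after E2. It was 2.16-fold lower after TP than after E2 (adjusted p = 0.0365). Il34, a ligand of Csf1r, fell from 137 ± 24.4 to 23.4 ± 1.2 (SD, n = 2 each), 5.80-fold lower (adjusted p = 0.00794), and was 8.64-fold and 6.87-fold below sham after TP and E2. Csf1, the other ligand, passed only after E2, at 1.84-fold. In this list of 8, 1 rose and 2 fell after castration, beside 14.0% of all genes called and 7.90% called higher.

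The following counts after castration stand beside 14.0% of all genes called and 7.90% of all genes called higher. Of 10 genes of the CD14 and Toll-like receptor pathway, 2 rose: Tlr4, the receptor that CD14 serves, at 2.85-fold (27.2 to 76), and Irak3, an inhibitor of that pathway, at 2.02-fold. Of 11 partners of Tyrobp, none rose and Syk, the kinase recruited by DAP12, was 10.1-fold lower (418 ± 41 in sham, 41.5 ± 4.67 in castrated, SD, n = 2 each). Syk is also made by epithelium, and its source here was not tested. Of 10 further complement genes, C1ra and C1s1, the proteases that C1q carries, rose 1.97-fold and 1.51-fold. Of 11 lysosomal genes Ctsz, a cathepsin, rose 6.01-fold and Lamp1, a membrane protein, was 1.67-fold lower. Of 12 monocyte chemokine genes Ccr2, the receptor of inflammatory monocytes, rose 1.64-fold and Ccl24, an eosinophil chemokine, was called 2.09-fold lower with all 4 arrays below background.

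Markers of other cells were followed on the same arrays. Against sham, 14.0% of all genes were called after castration (7.90% higher), 9.16% after TP and 17.2% after E2. Of 8 B and plasma cell genes 2 rose after castration, Igha from 33.2 ± 0.656 to 553 ± 222 (SD, n = 2 each) and Jchain by 6.81-fold, and the list summed to 145 and 159 in sham, 625 and 1653 in castrated, 583 and 909 after TP and 977 and 1406 after E2. The sums of the 10 macrophage genes were 2350 and 2336, 2806 and 3109, 2570 and 3151, and 3517 and 3732 in the same order. None of 9 neutrophil genes passed against sham in any group, but only 2 of the 9 were above background on all 8 caput arrays. That list summed to 108 to 269 on 7 of the caput arrays and to 759 on the second E2 array. T and natural killer cell genes summed to 121 and 140 in sham, 174 and 196 in castrated, 165 and 152 after TP and 180 and 158 after E2, so that sham was lowest, with 2 of 10 above background on all 8 caput arrays and Cd4 below it on all 8. Epithelial genes summed to 11118 to 13345. The actin 3′ to 5′ log2 ratio was 0.64 and 0.75 in sham, 0.79 and 1.02 in castrated, 1.08 and 1.20 after TP and 0.88 and 1.02 after E2. The part of these in the macrophage gene differences was not tested.

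In the efferent duct, castration gave no call among the 10 genes, and the largest differences were decreases. By the brightest probe sets limma's smallest adjusted p was 0.470, for Csf1r, none had an unadjusted p under 0.05, and 0.291% of all genes were called. Csf1r read 1095 and 1502 in sham and 1166 and 548 in castrated (log2 difference -0.68, -1.72 to 0.35). Its dimmest probe set, 1423593_a_at, did not overlap, at 44.2 and 46.7 in sham and 12.1 and 26.3 in castrated, where 1 array was not above background (-1.35, -2.53 to -0.17, unadjusted p = 0.0315, limma adjusted p = 0.304 over all probe sets). The probe set 1419873_s_at read 293 and 524 in sham and 248 and 155 in castrated (limma adjusted p = 0.373), also without overlap. C1qc read 78.9 and 117, then 65.2 and 57.1 (-0.66, -1.80 to 0.49), and its groups did not overlap. Cd14, which rose in the caput, stood at 51.3 and 50.5 in sham and 51.9 and 54.5 in castrated (0.06, -0.92 to 1.05). Both castrated arrays were higher than sham for Cd14, both were lower for Cd68 and C1qc, and the other 7 genes overlapped; over all genes 24.5% were higher and 23.0% lower. The 95% intervals had a median half-width of 1.07 in log2 units, against 0.45 in the caput. These duct intervals and p-values rest on a spread pooled over the vehicle and hormone arrays, which differed in quality. For Cd14 the TP arrays read 291 and 136 and the E2 arrays 265 and 188, further apart than its vehicle pairs. Csf1r went the other way, its castrated pair standing further apart than its TP pair of 967 and 753. A fit of only the 4 arrays compared also called none of the 10 genes. Of the 41 further macrophage genes, 26 of them above background on all 8 duct arrays, none was called. Their median log2 difference was -0.54, against 0.02 for all genes. Without overlap 3 of the 41 lay higher and 16 lower, where 24.5% and 23.0% of all genes did.

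The change on castration was set against that of the caput in 1 model of all 16 arrays, whose spread also includes the hormone arrays. None of the 10 genes passed, where 3.23% of all genes did. Cd14 came nearest, with a log2 change lower by -1.20 in the duct than in the caput (-2.17 to -0.24, unadjusted p = 0.0201, adjusted p = 0.168). C1qc, Tyrobp and Ptprc followed at -1.12, -1.03 and -0.87 (limma adjusted p = 0.276, 0.285 and 0.330). The tissues also differ in labelling kit and in the amount of RNA labelled, so tissue, kit and amount cannot be told apart.

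**Figure D3:**
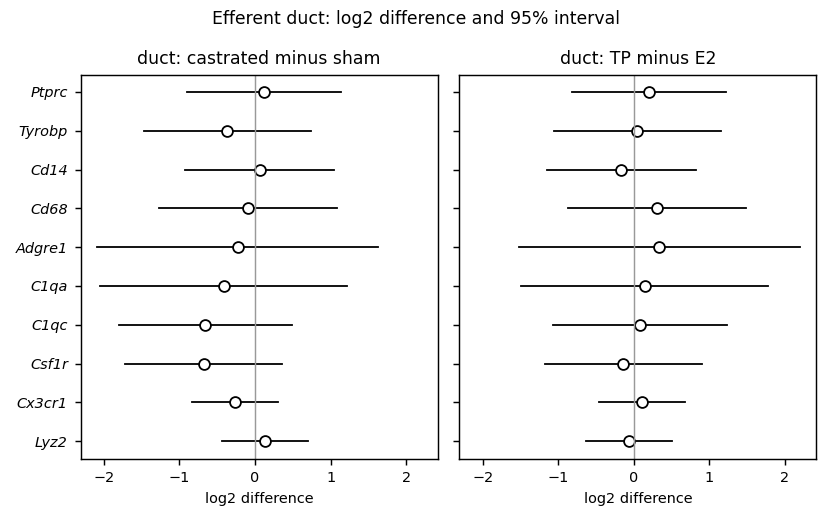
Log2 differences of the 10 genes in the efferent duct with their 95% intervals from limma, for castrated against sham and for TP against E2. The spread was pooled over the vehicle and hormone arrays of the duct. All intervals include 0, and those of Adgre1 and C1qa are the widest.

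Between TP and E2 the duct showed no call among the 10 genes or among all 18193 (0%); with no adjustment, p was under 0.05 for none of the 10 and for 1467 genes in all. The smallest limma adjusted p among the 10 was 0.956 and their log2 differences ran from -0.17 for Cd14 to 0.34 for Adgre1. Cx3cr1 alone did not overlap, at 31.9 and 31 after TP and 28.7 and 29.5 after E2, where 22.2% of all genes lay higher and 20.4% lower without overlap. The difference of this contrast from that in the caput passed for none of the 10, with a smallest adjusted p of 0.659 and 0.0495% of all genes called.

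**Figure D4:**
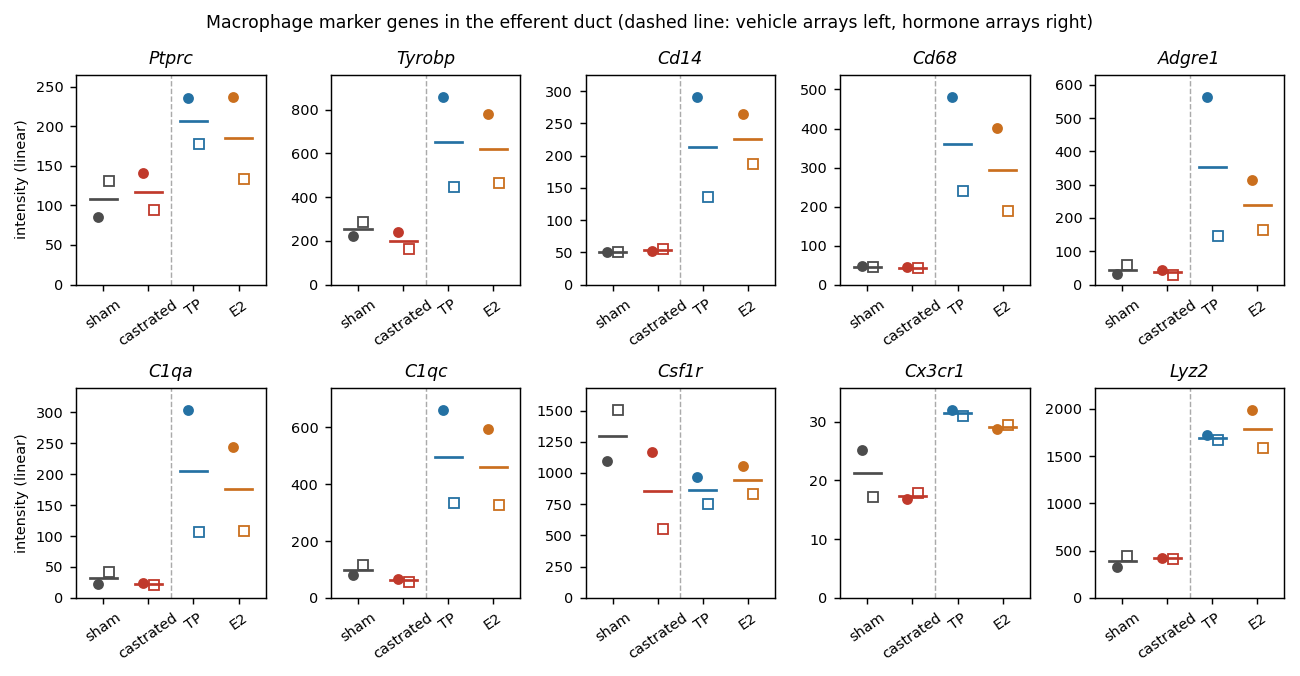
Linear intensity of the 10 genes on the 8 efferent duct arrays, by group. Filled circles are the first array and open squares the second of each group, lines are group means, and the dashed line parts the vehicle arrays from the hormone arrays, which were not compared. On the hormone arrays the first array reads higher than the second for most genes, as for Adgre1 after TP at 563 and 146.

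Both hormone groups of the duct had arrays that stood apart from each other. After TP all 10 genes were higher on the first array than on the second, by a median ratio of 1.95 (1.03 to 3.86). Adgre1 read 563 and 146, C1qa 303 and 107 and Tyrobp 857 and 446. After E2, 9 of the 10 were higher on the first array, by a median of 1.73, with Lyz2 at 1984 and 1591 and Cd68 at 401 and 188. Over all genes above background on both arrays of the group (15372 for TP, 15631 for E2), the median was 0.989 after TP and 0.970 after E2. Of these genes, 48.4% after TP and 45.1% after E2 were higher on the first array.

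Ratios over 1.5 were found for 6 of the 10 genes in each hormone group, against 12.3% and 8.66% of all genes above background on both arrays. In the sham and castrated ducts the median ratios were 0.729 and 1.16, with Adgre1 at 0.520 in sham and 2 genes over 1.5 in castrated, Csf1r at 2.13 among them. In the caput the medians lay between 0.865 and 1.03 and no ratio was over 1.5, while after TP Lyz2 and Cx3cr1 stood apart the other way, at 0.636 and 0.656. The 41 further macrophage genes summed to 13827 and 8709 after TP and to 13693 and 8765 after E2. Other markers did not all follow. The caput genes summed to 1971 and 200 on the TP arrays and to 101 and 642 on the E2 arrays, the neutrophil genes to 454 and 245 and to 1133 and 5504, and the actin log2 ratio was 0.91 and 1.93 after TP and 1.31 and 1.15 after E2. The part of these in the array differences was not tested.

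**Figure D5:**
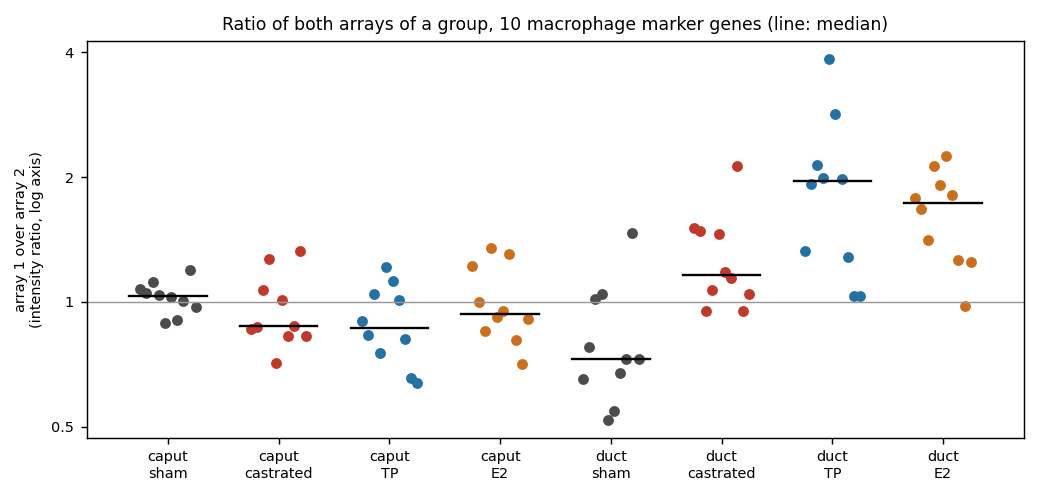
Ratio of the first array to the second of each group for the 10 genes (points), on a log axis, with a line at the median of the 10 genes and a grey line at 1. In the efferent duct the TP ratios run from 1.03 to 3.86 and the E2 ratios from 0.975 to 2.25, while the caput ratios run from 0.636, for Lyz2 after TP, to 1.35.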

How the data were processed

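Arrays of 16 samples (8 groups of 2) were used. The authors deposited 1 linear intensity per probe set and array. Per the submitters' processing notes the method was RMA, with no version given, yet the deposited values are not on a log2 scale, so their exact processing is not known. Further steps of the authors' processing are not given in the sources used here. Per the labels' protocols, duct RNA (50 ng) was amplified with an Ovation kit and caput RNA (10 microg) labelled with a One-Cycle kit.

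Symbols came from the array platform's annotation, which can be old. Of 45101 probe sets, 34958 had 1 symbol, 932 several and 9211 none. The 13 control probe sets with a symbol were left out. Each of 18193 genes was represented by its brightest probe set over the 16 arrays, and values were taken to log2 with no pseudocount, further normalization or filter. limma 3.58.1 in R 4.3.3 fitted 1 model per tissue (8 arrays, 4 groups) with Benjamini-Hochberg adjustment over all 18193 genes and a threshold of 0.05, and 1 model of 16 arrays gave the differences between tissues. Comparisons with sham share the same sham arrays. Python 3.11.15 did the rest. The rule for named genes took all 10 genes in every comparison, up to 4 called genes of each other list by smallest p, and the 5 genes above background on all 8 caput arrays that were most correlated with the 10. The 10 genes and the 17 further lists (macrophage, CSF1 and CX3CL1 axis, chemokine, CD14, TYROBP, complement, lysosome, MHC class II, dendritic, neutrophil, T and natural killer, B and plasma, mast cell, epithelium, stroma, caput and duct markers; C1qb and Trem2 each stand in 2 of them) were chosen with earlier results of these data known. On simulated data for castrated against sham in the caput (18193 genes), the test called 53 of 100 genes changed 4-fold, 18 of 100 changed 2-fold and 5 of 17993 unchanged genes. No other genes were changed there, whereas 14.0% of all genes were called in the data. The adjusted p depends on that share, so these counts do not give the power in the data. Alternatives were 10 choices of filter, normalization, probe set, model and left-out arrays.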

Additional observations from a re-analysis of the deposited data

How the results depend on the processing

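No difference of the 10 genes changed sign while called under any alternative run. Against sham in the caput, the 3 genes called after castration became 4 without the 40% dimmest genes and with limma's spread fitted against intensity (the added call was Cd68, lower), 1 with probe sets averaged, 1 in 1 fit of all 16 arrays, 0 in a fit of 4 arrays, and 0 to 0 with any 1 array left out. The single TP call became 5 without the dimmest genes, 5 with that intensity fit (in both, 4 genes higher and Cd68 lower), 2 with a floor of 16, and 0 with quantile normalization, averaged probe sets, 16 arrays, 4 arrays or, over the left-out arrays, 0 to 0. The 5 E2 calls became 6 without the dimmest genes and 6 with the intensity fit (Ptprc added in both), 3 with averaged or single probe sets, 2 with 16 arrays, 0 with 4 arrays and 1 to 1 with an array left out. TP against castrated, with 0 calls, gave 1 without the dimmest genes. TP against E2, with 0, gave 2 without the dimmest genes, 3 with the intensity fit and 2 with the floor. E2 against castrated, both duct comparisons and both differences between tissues stayed at 0 called under every alternative run. Over all genes, the 2550 called after castration became 4407 with the intensity fit, 1503 with averaged probe sets 0 with 4 arrays and 326 to 523 with 1 array left out. The 53 of the duct became 698, 34, 0 and 0 to 91, and 991 in the fit of 16 arrays. E2 against castrated gave 724 genes with the intensity fit. The 4-array and left-out fits hold fewer samples, and the fit without the dimmest tests fewer genes. What caused these changes in the counts was not tested.

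The labels number the arrays of each group 1 and 2. Over all genes above background on the 8 arrays of a tissue, same-numbered arrays did not deviate together. Their correlations were -0.051 to 0.079 over 6 pairs of groups in the caput and -0.12 to 0.099 in the duct. The numbers were therefore not taken as pairs. Of the 10 genes alone, 10 were higher on the first duct array after TP, 9 after E2, 8 in castrated and 3 in sham. With the replicate number as a block, calls against sham were 2 for castrated, 0 for TP and 3 for E2 (Cd14, Lyz2 and Tyrobp), and 0 in every other comparison.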

Other observations

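The caput's own genes showed the reach of castration on these arrays. Of 7 genes that mark the caput, 6 were lower after castration, 7 after E2 and 5 after TP than in sham. Over all genes 14.0%, 17.2% and 9.16% were called in these comparisons. Rnase10, a secreted protein of the proximal epididymis, read 27 ± 3.73 in castrated mice (SD, n = 2) and was 372-fold below sham. Adam7, a membrane protein of the same epithelium, was 33.7-fold lower (limma adjusted p = 0.00142). Of 8 duct markers 2 were called higher in the castrated caput, both genes of ciliated cells: Foxj1, the regulator of motile cilia, at 2.84-fold and Dynlrb2, a dynein light chain, at 3.38-fold. The 8 had a median log2 difference of 0.02. Without overlap 3 of them lay higher and 4 lower, where 35.1% and 27.6% of all genes did. Among 8 epithelial genes 2 claudins moved in opposite directions, Cldn4 rising 1.89-fold and Cldn3 falling to 1078 ± 41.8 from 2122 ± 80.4 (SD, n = 2 each), and Krt19, a keratin, was 1.80-fold lower.

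Other immune and connective tissue lists were read in the castrated caput, where 14.0% of all genes were called. Of 8 dendritic cell genes Itgax, which encodes CD11c and is also made by macrophages, rose 2.63-fold, from a sham level above background on 1 of 2 arrays. Of 6 MHC class II genes only H2-DMa, which helps to load peptides, was called, 2.36-fold lower. The median log2 difference of the 6 was 0.44, against 0.06 for all genes. Without overlap 3 of them lay higher and 1 lower, where 35.1% and 27.6% of all genes did. Of 7 mast cell genes Mcpt4 was called, but it lay below background on all 4 arrays compared. Hdc, the enzyme that makes histamine, read 47.1 ± 13.8 in sham and 185 ± 28.9 after E2 (SD, n = 2 each), and was 3.30-fold above sham after TP. Of 11 stromal genes Dcn and Pdgfrb rose 1.74-fold and 1.39-fold, and Col1a1, a collagen chain, was 3.14-fold lower. Of 10 T and natural killer cell genes Cd8b1 was called, at a level above background on 1 of 2 castrated arrays.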
